A study of Rattus norvegicus with 24 samples.

Results

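The right hindlimbs of 12 aged rats were compared here, which are 12 of the 24 limbs in the series. They comprise 9 contralateral limbs, whose animals had the left leg silenced with tetrodotoxin (TTX), and the right limbs of 3 sham animals, in which neither leg was silenced. The members were taken by limb and animal from the sample labels, so no measured value entered the choice. The question was whether disuse of one leg alters the transcriptome of the untreated leg, which serves as the control limb of the design. All animals were male Fischer 344 rats aged 23 ± 1 months, and the tissue was the tibialis anterior (TA), the main dorsiflexor of the ankle. In TTX animals, an osmotic pump delivered TTX, a blocker of voltage-gated sodium channels, through a silicone cuff around the left common peroneal nerve. Atrophy animals were silenced for 6 to 7 days, recovery animals then went without TTX for 9 days, and repeated atrophy animals were silenced for a further 5 to 6 days. Sham animals had the same surgery on the left side without TTX, 1 animal at each time point, and the right leg of every animal had no surgery. The 9 contralateral limbs are therefore 3 at each time point, and animals are numbered 1 to 3 within a time point. Sham animals 1, 2 and 3 belonged to the atrophy, recovery and repeated atrophy time points, so that animal and time cannot be told apart among them. Each animal gives 1 right limb, so the limbs compared are separate animals. All p-values come from this number of animals, which is small in the sham arm.

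A limb opposite to a paralysed one shares the circulation, hormones, food intake and housing of the same animal, and it can carry more of the body weight. Skeletal muscle that loses its nerve input switches on acetylcholine receptor subunits, embryonic myosins and myogenic regulators, and it degrades protein through the ubiquitin ligases Trim63 (MuRF1) and Fbxo32 (atrogin-1), known as atrogenes. The same ligases also respond to fasting and glucocorticoids through FoxO transcription factors, which act on all muscles of an animal.

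Levels are given as CPM, the reads of a gene scaled to a total of 1000000 per limb, which are not scaled by gene length, so that they are compared between limbs and not between genes. Sequencing depth, estimated from the smallest unit that low genes were counted in, ran from 18900000 to 29100000 counted units in the contralateral limbs and was 29100000, 20700000 and 30900000 in sham right limbs 1, 2 and 3. The libraries were paired-end, and whether a unit is a read or a read pair is not given in the sources used here. The tissue label held in every right limb: the summed level of 12 muscle fibre genes lay between 114000 and 169000 CPM in the contralateral limbs and was 136000, 152000 and 99900 CPM in the sham limbs. A few limbs need to be known before the results. Sham right limb 3 and the contralateral limb of atrophy animal 3 had the most rows outside the range of the contralateral limbs. Of 10474 rows with a mean of at least 1 CPM, 27.8%, 11.7% and 41.6% lay outside the range of the contralateral limbs in sham right limbs 1, 2 and 3, and 39.7% lay outside the range of the other 8 contralateral limbs in atrophy animal 3. On that measure the contralateral limb of atrophy animal 2 stood at 33.9%, above sham right limb 1. Repeated atrophy animal 3, recovery animal 3 and repeated atrophy animal 1 stood at 27.4%, 26.9% and 26.8%, close to sham right limb 1. Atrophy animal 2 had a TTX-treated left limb with the receptor subunit gene Chrna1 at 69.9 CPM, within the range of the contralateral limbs (15.7 to 95.2 CPM), against 431 to 1350 CPM in the other 5 TTX-treated limbs of the atrophy and repeated atrophy animals, so its contralateral limb may not stand for a fully silenced animal.

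No gene passed the threshold between the arms. Of 13848 rows tested, 0 (0%) were differentially expressed genes (DEGs), which had to pass both a 1.2-fold difference and a limma p of 0.05 after Benjamini-Hochberg adjustment. The smallest adjusted p of that test was 0.514. At an unadjusted p under 0.05 there were 1132 rows (8.17%), of which 54 (0.390%) were at a higher and 1078 (7.78%) at a lower level in the contralateral limbs. This lopsided split moved with the scaling: the median log2 fold change over all rows was -0.15 as deposited and -0.01 after rescaling by a trimmed mean of M-values (TMM), which sets limbs to a common level over most genes. After rescaling, 741 rows (5.35%) were left at an unadjusted p under 0.05, 281 higher (2.03%) and 460 lower (3.32%), and the count of DEGs was again 0. List medians below are therefore given on both scales, as deposited and rescaled. Counts of list members after rescaling are to be read beside the 3.32% of all rows lower and the 2.03% higher on that scale.

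The counts moved most with the sham animals. Without sham right limb 2 there were 117 DEGs, 3 higher and 114 lower in the contralateral limbs, and 3410 rows at an unadjusted p under 0.05. With TMM rescaling as well, a setting chosen after seeing the data, 4 DEGs and 2058 such rows were left, of which 1040 were higher and 1018 lower, so that both the number of DEGs and the split of these rows depended on the scaling. In 91 of the 117 DEGs on the deposited scale, sham right limb 2 lay within the range of the 9 contralateral limbs. Among these were Pecam1 and Vwf of the endothelium (log2 fold changes of -1.24 and -1.54 without that limb, limma adjusted p of 0.0156 and 0.0265) and the growth factor gene Igf1 (-1.61, adjusted p of 0.0258). Gpt, which encodes alanine aminotransferase and was named after its values were seen, was 1 of the 3 higher DEGs (1.45, limma adjusted p of 0.0377). None of these 4 genes was a DEG in limma when the values were also rescaled. Gpt was at 34.0, 70.0 and 20.1 CPM in sham right limbs 1, 2 and 3 and at 51.6 to 104 CPM (median 83.3) in the contralateral limbs. Without sham right limb 1 there was 1 DEG, Zdhhc23, which was below 1 CPM in all 12 limbs, and 489 rows at the unadjusted threshold. Without sham right limb 3 there were 0 DEGs by limma and 825 rows at the unadjusted threshold, and without any single contralateral limb 0 DEGs and between 863 and 1672 such rows. The limb of atrophy animal 2 was among the latter, with 1454 rows when it was left out. Without sham right limbs 1, 2 and 3 in turn, 3.08%, 23.0% and 5.61% of all rows were lower and 0.455%, 1.59% and 0.347% higher in the contralateral limbs at that threshold, and counts of list members in those settings are to be read beside these shares. DEGs among list members without sham right limb 2 are to be read beside the 117 DEGs of all 13848 rows.

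**Figure D1:**
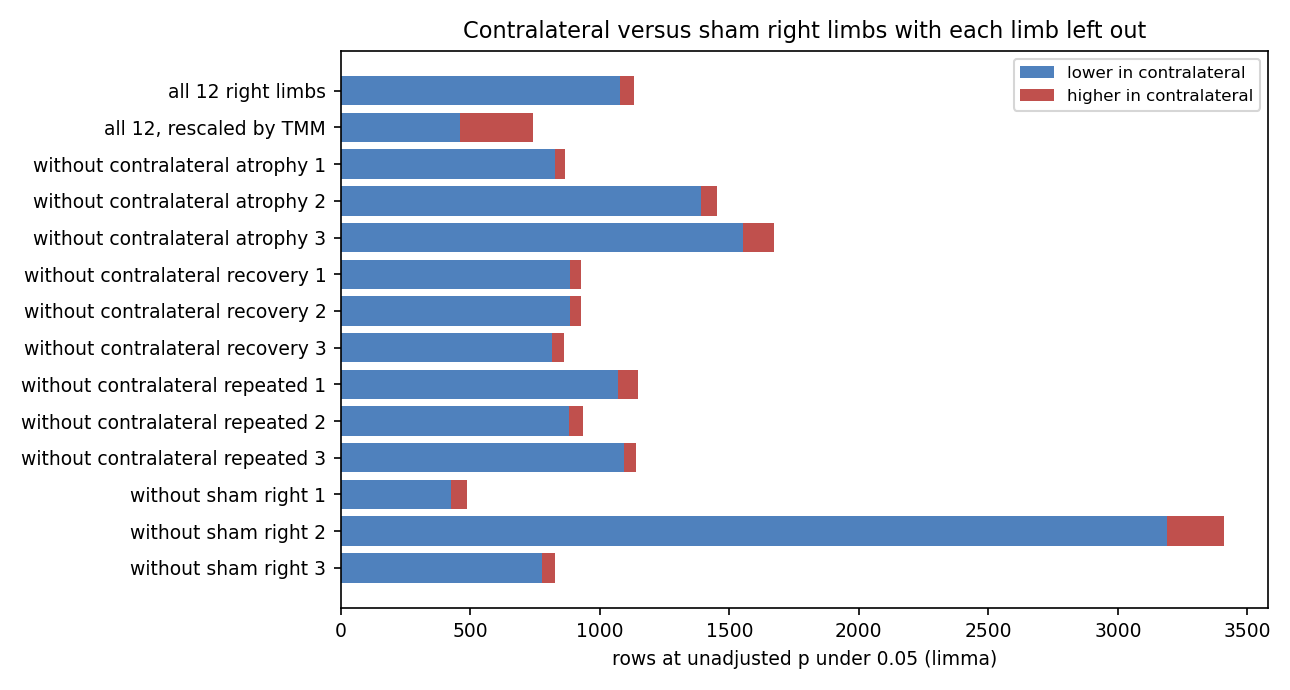
Rows at an unadjusted p under 0.05 (x axis, number of rows) in limma with all 12 right limbs, after TMM rescaling and with each limb left out; blue bars are rows lower and red bars rows higher in the contralateral limbs. The bar without sham right limb 2 reaches 3410 rows, against 1132 with all limbs and 489 without sham right limb 1.

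On the first principal component (PC1), sham right limbs 1 and 3 and the contralateral limb of atrophy animal 3 held the positive end. PC1, with 38.0% of the variance of log2(CPM + 1), placed sham right limbs 1, 2 and 3 at 31.1, -23.6 and 55.4, and the contralateral limbs between -36.4 and 37.6. The highest contralateral limb was that of atrophy animal 3, and the lowest that of recovery animal 3. On PC2 the ends were sham right limb 1 at 41.0 and the contralateral limb of repeated atrophy animal 1 at -33.6. The arms overlapped on PC1, and the difference of -27.9 between their means was within the spread of the limbs (exact permutation test, two-sided, with all 220 ways to choose the 3 sham limbs, p = 0.186, adjusted p = 0.315 over 4 such values). The smallest p this test can give is 0.00455. Without sham right limb 2 the difference was -49.9 (exact p = 0.0364), and without the limb of atrophy animal 3 it was -35.5 (exact p = 0.0424).

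**Figure D2:**
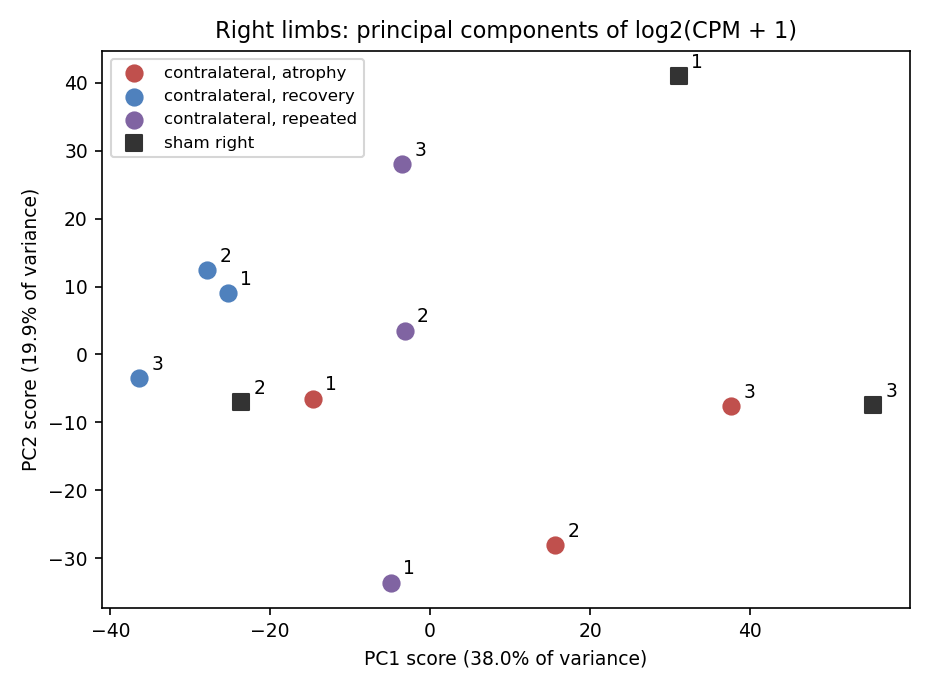
Scores of the 12 right limbs on PC1 (x axis, 38.0% of variance) and PC2 (y axis, 19.9% of variance); circles are contralateral limbs by time point, squares are sham right limbs, and numbers are animals. Sham right limb 2 lies among the contralateral limbs at -23.6 on PC1, while sham limbs 1 and 3 lie at 31.1 and 55.4.

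Rank correlations between limbs gave a similar account. Spearman's rho over all tested rows had a median of 0.976 over the 36 pairs of contralateral limbs, 0.968 over the 27 pairs of a contralateral and a sham limb, and 0.963 over the 3 pairs of sham limbs. These pairs share limbs and are given as a description. The share of CPM held by the 10 most abundant genes was 29.6% ± 3.11 (SD, n = 9) in the contralateral limbs and 26.8% ± 3.35 (SD, n = 3) in the sham limbs, a difference of 2.79 percentage points (exact permutation p = 0.236, adjusted p = 0.315). The TMM factor, by which the rescaling divides each limb, was 0.967 ± 0.0825 (SD, n = 9) and 1.13 ± 0.173 (SD, n = 3), a difference of -0.159 with the smallest p of the 4 values (exact permutation p = 0.0455, adjusted p = 0.182). The fourth value, the PC2 score, differed by -11.8 (exact permutation p = 0.455, adjusted p = 0.455).

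Sham right limb 1 carried a high level of lymphocyte, interferon and cell cycle genes. Against the range of the 9 contralateral limbs, 313 of 10474 rows with a mean of at least 1 CPM were at least 2-fold above the highest contralateral limb in it, and in 310 of these (99.0%) the operated left limb of the same animal was also above that range. After rescaling, the count was 201. The interferon-induced gene Slfn4 was at 397 CPM there, against 11.2 and 14.1 CPM in sham right limbs 2 and 3 and 6.26 to 21.7 CPM in the contralateral limbs. Gzmb, a granzyme of cytotoxic lymphocytes, was at 59.3, 1.55 and 0.68 CPM in sham right limbs 1, 2 and 3, and at 0.23 to 4.19 CPM (median 0.572) in the contralateral limbs. Prf1, the pore-forming perforin of the same cells, was at 82.0, 3.34 and 1.04 CPM, and at 0.506 to 11.5 CPM in the contralateral limbs. These genes were named after their values were seen. In each of them 1 sham limb stood alone and the other sham limbs lay inside the contralateral range.

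The 23 tested interferon-stimulated genes had a median log2 fold change (contralateral minus sham) of -0.65, and -0.48 after rescaling, with 0 DEGs in limma. Of them, 4 were lower at an unadjusted p under 0.05, beside 7.78% of all rows, and 3 after rescaling, beside 3.32%. Without sham right limb 1 the median was 0.02 and 0 of the 23 reached the unadjusted threshold, without sham right limb 2 it was -1.01 with 11 of 23 lower (beside 23.0% of all rows), and without sham right limb 3 it was -1.09 with 17 of 23 lower (beside 5.61%). Irf7, the transcription factor that amplifies type I interferon, was at 81.9, 5.95 and 2.20 CPM in sham right limbs 1, 2 and 3, against 2.77 to 7.22 CPM (median 5.90) in the contralateral limbs. Rsad2, which encodes the antiviral enzyme viperin, was at 25.9, 2.47 and 4.34 CPM, against 1.72 to 5.62 CPM (median 2.41). The left limb of sham animal 1 held 76.1 CPM of Irf7 and 23.5 CPM of Rsad2, so the high level was present on both sides of this animal.

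The promoters of these 2 genes are shown because the interferon-stimulated genes moved together in 1 animal. The windows run from 250 bases before to 50 bases after the start of the gene and come from RefSeq (assembly GRCr8, which is not the rn7 build of the expression values). Capitals mark GAAA, any 2 bases and GAAA, or on the other strand TTTC, any 2 bases and TTTC, the core of the interferon-stimulated response element.
Irf7 (chr1:205799974-205800273, minus strand): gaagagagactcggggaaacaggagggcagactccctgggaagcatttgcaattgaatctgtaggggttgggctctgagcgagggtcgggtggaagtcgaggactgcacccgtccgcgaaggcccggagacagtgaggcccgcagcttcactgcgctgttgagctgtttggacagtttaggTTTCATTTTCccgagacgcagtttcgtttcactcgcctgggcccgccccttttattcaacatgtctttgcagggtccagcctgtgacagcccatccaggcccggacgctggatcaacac
Rsad2 (chr6:48788071-48788370, minus strand): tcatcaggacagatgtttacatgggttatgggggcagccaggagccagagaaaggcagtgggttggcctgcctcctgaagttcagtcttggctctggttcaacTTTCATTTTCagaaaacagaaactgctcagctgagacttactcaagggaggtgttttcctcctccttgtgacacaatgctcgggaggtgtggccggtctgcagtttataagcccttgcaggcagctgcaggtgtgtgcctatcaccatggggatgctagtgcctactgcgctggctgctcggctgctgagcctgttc
Of the 24 listed interferon-stimulated genes, 17 had a promoter in the table, and 12 of these (70.6%) held the letters on either strand. Among all 33469 promoters, 1312 (3.92%) held them. The match is a description of these windows only.

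Cell type markers were high in the same animal. The summed level of the lymphocyte markers was 85.9 CPM in sham right limb 1, 16.7 and 15.6 CPM in sham right limbs 2 and 3, and 5.99 to 26.7 CPM in the contralateral limbs. Of the 10 lymphocyte markers tested, 1 was lower in the contralateral limbs at an unadjusted p under 0.05, beside 7.78% of all rows, and the list's median log2 fold change was -0.27 (-0.17 rescaled). Cd3d, a T cell marker, was at 0 in 4 of the 12 limbs. Macrophage markers summed to 446, 163 and 273 CPM in the sham limbs and to 97.8 to 302 CPM in the contralateral limbs, with 3 of 13 lower at the unadjusted threshold (1 rescaled) and a median of -0.67 (-0.47 rescaled). Without sham right limbs 1, 2 and 3 in turn, 0, 9 and 4 of the 13 macrophage markers and 0, 4 and 4 of the 10 lymphocyte markers were lower, beside 3.08%, 23.0% and 5.61% of all rows. Red blood cell genes, a sign of blood left in the sample, summed to 1600 CPM in sham right limb 1, to 541 CPM or less in the other sham limbs and to 420 to 2110 CPM in the contralateral limbs, with the highest sum in atrophy animal 2. Their mean level on the log2 scale was highest in sham right limb 1 of all right limbs, at 5.72 against 3.69 to 5.58 in the contralateral limbs, and so moved with the immune genes of that limb. Whether these cells account for the other gene groups was not tested, and in bulk muscle more cells of a type and more RNA per cell cannot be told apart.

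Endothelial markers were raised in 2 of the 3 sham limbs. Their summed level was 833, 313 and 576 CPM in sham right limbs 1, 2 and 3 and 308 to 405 CPM in the contralateral limbs. Vwf, which encodes von Willebrand factor of the vessel lining, was at 146, 34.7 and 96.7 CPM, against 27.0 to 65.8 CPM (median 42.1) in the contralateral limbs. Its log2 fold change was -0.96 ± 0.34 (SE), with a limma adjusted p of 0.594. Pecam1, an adhesion molecule of endothelial junctions, was at 245, 72.2 and 162 CPM, against 71.9 to 107 CPM (median 83.2). For both genes sham limbs 1 and 3 lay above every contralateral limb and sham limb 2 lay inside their range. Of 11 markers, 6 were lower in the contralateral limbs at the unadjusted threshold, beside 7.78% of all rows, with a median of -0.53. After rescaling, 3 of 11 were lower, beside 3.32% of all rows, with a median of -0.32. On the deposited scale, the count moved to 0 without sham right limb 1 and to 3 without sham right limb 3. Without sham right limb 2 it was 11 of 11, with 3 DEGs in limma, beside 117 DEGs among all 13848 rows. The shares of all rows that were lower without sham right limbs 1, 2 and 3 were 3.08%, 23.0% and 5.61%.

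Of the cell proliferation genes, 9 of 26 were lower in the contralateral limbs at an unadjusted p under 0.05, beside 7.78% of all rows, and 4 of 26 after rescaling, beside 3.32%. The list's median was -0.54 (-0.42 rescaled), and without sham right limb 1 it was 0.05 with 1 of 26 at the threshold. Without sham right limb 2 it was -0.85 with 18 of 26 lower and 2 DEGs in limma, and without sham right limb 3 it was -0.71 with 13 of 26 lower. Tpx2, a spindle assembly factor (rn7 chr3:141318456-141360685), differed from the rest of the list in that all 3 sham limbs were above the contralateral limbs, at 71.0, 75.8 and 186 CPM. The contralateral limbs held 11.3 to 55.8 CPM of Tpx2 (median 33.5). Its log2 fold change was -1.86 ± 0.48 (SE), or -1.65 rescaled, with a limma adjusted p of 0.552.

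Sham right limb 3 was high in a different group of genes, those of fasting, glucocorticoid action and protein breakdown. It was at least 2-fold above the highest contralateral limb in 102 of the 10474 rows, and the left limb of the same animal was also above that range in 97 of them (95.1%), and the count was 48 after rescaling. These counts were no larger than those of a contralateral limb, since atrophy animal 3 was at least 2-fold above the other 8 contralateral limbs in 119 rows (68 after rescaling). Pdk4, which closes pyruvate oxidation in fasting, was at 66.2, 53.0 and 1450 CPM in sham right limbs 1, 2 and 3 and at 11.8 to 555 CPM (median 28.3) in the contralateral limbs. Angptl4, a fasting-induced inhibitor of lipoprotein lipase, was at 6.50, 2.66 and 130 CPM, against 0.617 to 38.3 CPM (median 1.56). The left limb of sham animal 3 was also high, with 1050 CPM of Pdk4 and 123 CPM of Angptl4.

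The atrogenes showed the same limb and a contralateral limb beside it. Trim63 was at 371, 227 and 2960 CPM in sham right limbs 1, 2 and 3, and the contralateral limbs ran from 127 to 1920 CPM (median 287), with the highest value in atrophy animal 3. Fbxo32 was at 34.6, 8.42 and 107 CPM, and at 2.29 to 92.4 CPM (median 14.9) in the contralateral limbs, again highest in atrophy animal 3. Foxo1, a FoxO factor of this pathway, was at 26.0, 4.70 and 74.1 CPM, and at 6.46 to 25.9 CPM (median 13.2). The 2 arms overlapped in all 3 genes. Over the 18 atrogenes the median log2 fold change was -0.57 (-0.36 rescaled), 0 were DEGs and 0 reached an unadjusted p under 0.05, and without sham right limbs 1, 2 and 3 in turn the median was -0.56, -0.90 and -0.12, with 0, 9 and 0 of 18 lower at the unadjusted threshold, beside 3.08%, 23.0% and 5.61% of all rows. The 25 tested genes of the glucocorticoid response had a median of -0.37 (-0.17 rescaled), also with 0 at the unadjusted threshold. In turn without the 3 sham limbs their median was -0.42, -0.87 and 0.03, with 1, 8 and 0 of 25 lower, beside the same shares.

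The Trim63 promoter is shown for this group, with the FoxO site GTAAACA or its reverse complement TGTTTAC in capitals (RefSeq, GRCr8).
Trim63 (chr5:151816986-151817285, plus strand): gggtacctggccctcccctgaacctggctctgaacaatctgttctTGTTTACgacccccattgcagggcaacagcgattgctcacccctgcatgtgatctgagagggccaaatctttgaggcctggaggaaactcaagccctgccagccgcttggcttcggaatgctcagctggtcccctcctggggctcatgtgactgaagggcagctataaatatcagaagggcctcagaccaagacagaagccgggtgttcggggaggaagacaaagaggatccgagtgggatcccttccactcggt
Of 14 atrogenes with a promoter in the table, only Trim63 (7.14%) held these letters in the window, beside 3.78% of all promoters.

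Some stress and immediate early genes were at a lower level in the contralateral limbs than in sham limbs 1 and 3. Of 27 activity-dependent genes, 9 were lower at an unadjusted p under 0.05 (median -0.48, or -0.27 rescaled) and none were DEGs in limma, and of 26 genes of the integrated stress response 8 were lower (median -0.44, or -0.31 rescaled), beside 7.78% of all rows. After rescaling, 4 genes of each list were lower at that threshold, beside 3.32% of all rows. In the integrated stress response 1 gene was then higher, beside 2.03%. Fos, an immediate early transcription factor, was at 12.2, 7.26 and 29.9 CPM in sham right limbs 1, 2 and 3 and at 2.54 to 10.7 CPM (median 4.36) in the contralateral limbs. Atf3, a stress-induced transcription factor, was at 17.6, 6.39 and 32.3 CPM, against 6.17 to 14 CPM (median 8.43). In both genes sham limbs 1 and 3 were high and sham limb 2 was not. The counts of lower genes were 2 of 27 and 7 of 26 without sham right limb 1, 17 of 27 and 17 of 26 without sham right limb 2, with 2 DEGs in limma in each list, and 0 of 27 and 1 of 26 without sham right limb 3. The growth factor gene Igf1 was at 17.4, 8.37 and 31.7 CPM, against 5.01 to 11.1 CPM (median 6.82), with a log2 fold change of -1.14 ± 0.31 (SE) and a limma adjusted p of 0.567.

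**Figure D3:**
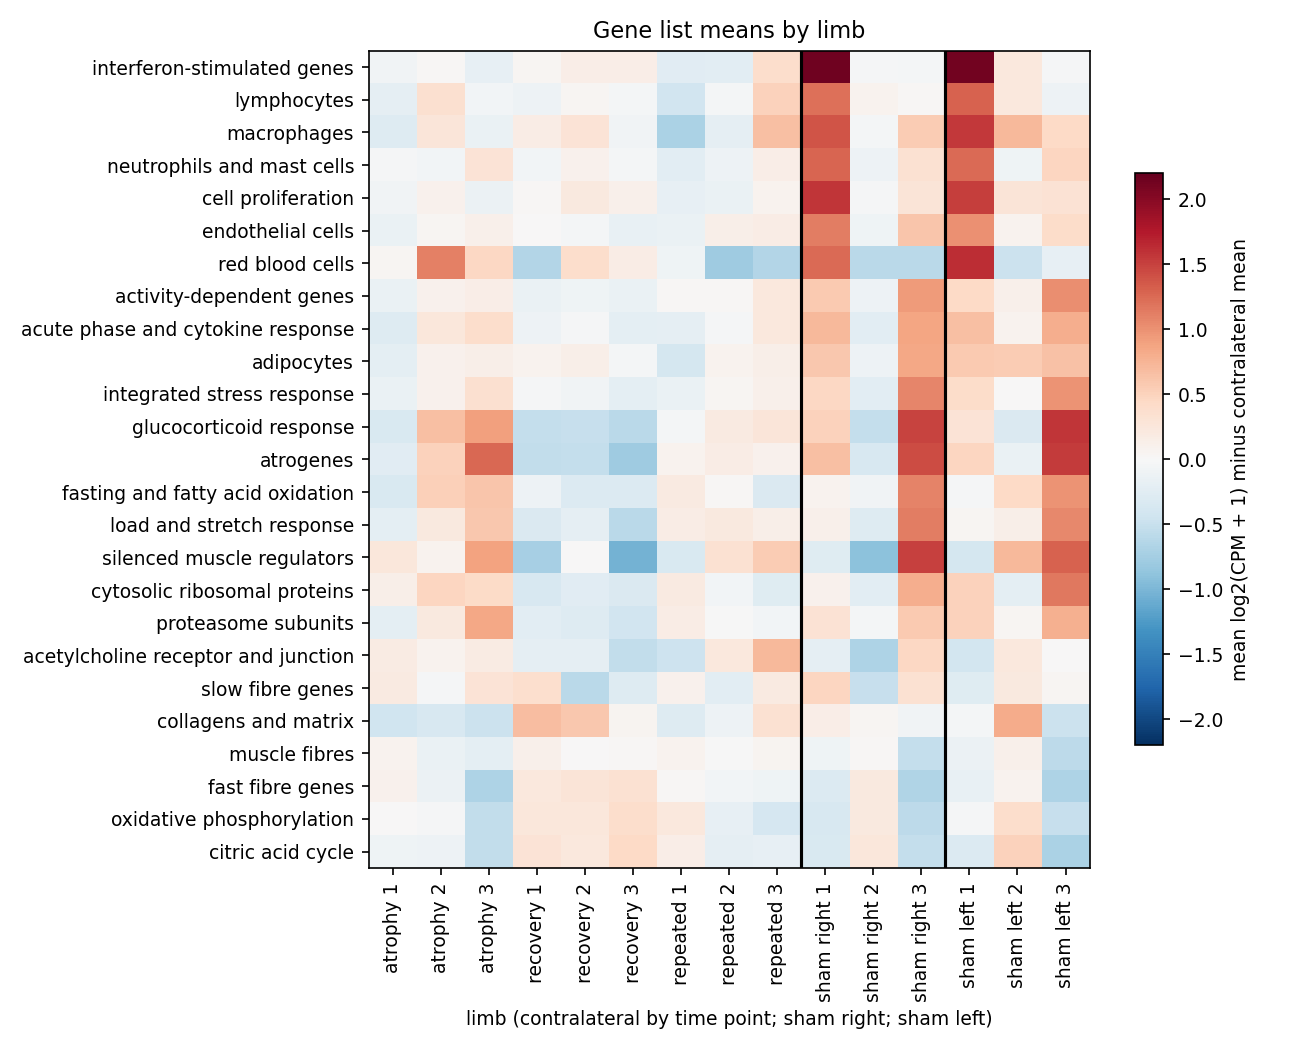
Mean log2(CPM + 1) of 25 gene lists (rows) in the 9 contralateral limbs, the 3 sham right limbs and the 3 sham left limbs (columns), as the difference from the contralateral mean; red is higher and blue lower. Sham animal 1 is red in both limbs for interferon-stimulated genes (2.14 right, 2.13 left), sham animal 3 for atrogenes (1.44 right, 1.54 left), and the right limb of sham animal 2 is near 0 for both (-0.03 and -0.35).

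Rows whose 9 contralateral limbs all lay on one side of all 3 sham limbs were few. There were 95 such rows of 13848 (0.686%), 7 higher (0.0505%) and 88 lower (0.635%) in the contralateral limbs, none of them DEGs in limma. With interchangeable limbs, 1 of the 220 ways to choose the 3 sham limbs parts a row in a given direction (a fraction of 0.00455). That fraction holds for each direction, so the 95 rows were no more than interchangeable limbs would give. The share of lower rows was above it and that of higher rows below it. Of the 95, 32 had a mean of at least 10 CPM in 1 arm. The 4 of these that were higher in the contralateral limbs were Fhl3, Itgb6, Osbpl6 and Bves.

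Fhl3, a LIM-domain protein of muscle (rn7 chr5:136954095-136960848), was at 41.8, 56.4 and 57.0 CPM in sham right limbs 1, 2 and 3 and at 75.3 to 127 CPM (median 87.8) in the contralateral limbs. Its log2 fold change was 0.85 ± 0.18 (SE), or 1.06 rescaled, with an adjusted p of 0.514 in limma. Its unadjusted p of 2.90e-04 in limma was the smallest of the 14 genes named from rows that parted the arms. The left limbs of sham animals 1, 2 and 3 held 32.5, 83.8 and 33.6 CPM, so that the left limb of sham animal 2 lay within the contralateral range.

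Itgb6, an integrin subunit that activates latent TGF-beta (rn7 chr3:45048041-45121672), was at 16.8, 18.4 and 14.9 CPM in the sham right limbs and at 21.9 to 32.8 CPM (median 23.8) in the contralateral limbs, a log2 fold change of 0.61 ± 0.16 (SE). Osbpl6, an oxysterol-binding protein, was at 13.8, 14 and 11.6 CPM, against 15.4 to 26.0 CPM (median 17.9), a log2 fold change of 0.46 ± 0.17. Bves, a Popeye-domain membrane protein of striated muscle, was at 38.4, 43.0 and 42.1 CPM, against 43.6 to 64.6 CPM (median 54.1), a log2 fold change of 0.35 ± 0.14. The arms were close in Bves, where the lowest contralateral limb was next to the highest sham limb. The adjusted p of these 3 genes in limma was between 0.552 and 0.594.

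Among the rows at a lower level in the contralateral limbs, the named genes after Tpx2 were Slfn2, Hsd11b1, Acsl5, Inpp5f, Son, Ifitm2, Zfp131, Cybc1 and Rph3al. Slfn2, a Schlafen family gene of lymphoid and myeloid cells (rn7 chr10:67953322-67959660), was at 72.3, 21.9 and 25.4 CPM in the sham right limbs and at 13.8 to 20.1 CPM (median 16.5) in the contralateral limbs. Hsd11b1, which regenerates active glucocorticoid inside cells (rn7 chr13:104748831-104774810), was at 12.9, 11.2 and 17.4 CPM, against 4.72 to 10.3 CPM (median 6.12). Ifitm2, an interferon-induced membrane protein, was at 35.3, 24.2 and 27.8 CPM, against 13.3 to 21.9 CPM (median 17.9). That all 3 sham limbs lay above the contralateral limbs follows from how these genes were picked. In Slfn2, sham limb 1 was far above the other sham limbs. The log2 fold changes of these 3 genes were -0.97 ± 0.27, -0.87 ± 0.25 and -0.68 ± 0.18 (SE) in the order Slfn2, Hsd11b1, Ifitm2, and their adjusted p-values in limma ran from 0.552 to 0.594.

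The remaining 6 named genes had log2 fold changes between -0.78 and -0.55. Cybc1, a chaperone of the phagocyte oxidase, was at 17.4, 11.6 and 16 CPM in the sham right limbs and at 8.25 to 10.8 CPM (median 8.92) in the contralateral limbs. Acsl5, an acyl-CoA synthetase, was at 21.9, 9.25 and 10.0 CPM, against 5.15 to 8.74 CPM (median 7.05). Son, a splicing cofactor with 2 rows in the table, was at 36.1, 39.3 and 43.4 CPM in the row that parted the arms, against 16.4 to 35.2 CPM (median 25.5). The left limb of sham animal 2 lay inside the contralateral range for Acsl5 (6.06 CPM) and Son (28.5 CPM), and at its upper end for Cybc1 (10.8 CPM). 

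**Figure D4:**
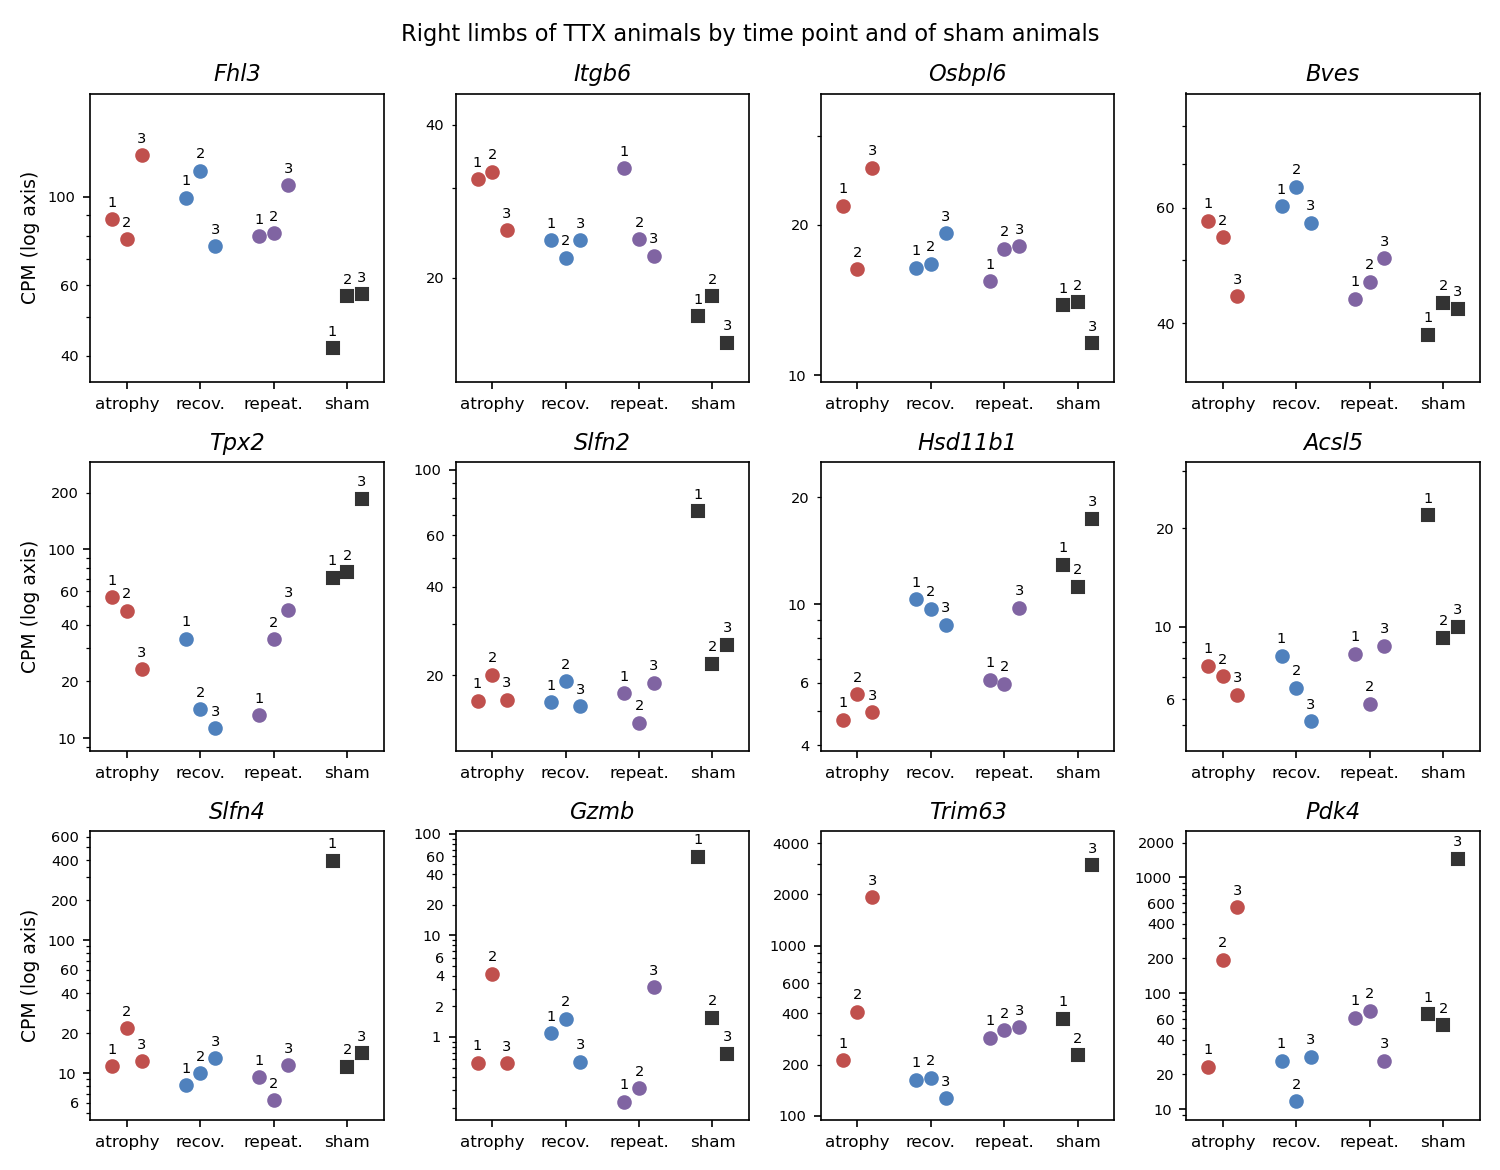
CPM (y axes, log scale) of 12 genes in each right limb, with contralateral limbs by time point as circles, sham limbs as squares, and numbers for animals. The first 8 panels part the arms (Fhl3: 75.3 to 127 CPM contralateral, 41.8 to 57.0 CPM sham), and in the last 4 a single sham limb stands above the others (Slfn4 397 CPM in sham animal 1, Pdk4 1450 CPM in sham animal 3).

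The genes that mark silenced muscle were next examined in the untreated limbs. The list of 21 genes had been chosen from the left limbs of this series, so the left limb values are a description. Of these, 20 were tested, 0 were DEGs, and 1 (Nr4a3) reached an unadjusted p under 0.05, at a lower level in the contralateral limbs. This count is to be read beside the 7.78% of all rows that were lower at that threshold. The adjusted p in limma ran from 0.594 to 0.999 with all limbs. Without sham right limb 2, Nr4a3 was a DEG (log2 fold change of -1.56, limma adjusted p of 0.0354), beside 117 DEGs among all 13848 rows. The list holds genes that TTX-treated limbs gain and genes that they lose, so no median over it is given.

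Chrna1, the alpha subunit of the muscle acetylcholine receptor (rn7 chr3:58454765-58469833), was at 24, 18.3 and 87.7 CPM in sham right limbs 1, 2 and 3 and at 15.7 to 95.2 CPM (median 44.7) in the contralateral limbs. The TTX-treated left limbs held 938, 69.9 and 431 CPM in atrophy animals 1, 2 and 3 and 561, 1310 and 1350 CPM in repeated atrophy animals 1, 2 and 3, so that the left limb of atrophy animal 2 lay within the contralateral range. Chrnd, the delta subunit, was at 24.7, 19.7 and 97.3 CPM in the sham limbs and at 14.4 to 131 CPM (median 56.9) in the contralateral limbs. The arms overlapped fully in both subunit genes. The 95% intervals of the log2 fold change were -0.76 to 1.45 for Chrna1 and -0.93 to 1.69 for Chrnd, and all differences within these bounds are compatible with the values.

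Myog, a myogenic regulator induced by denervation, was at 40.1, 35.5 and 134 CPM in the sham limbs and at 18.2 to 132 CPM (median 45.0) in the contralateral limbs, with 424, 187 and 782 CPM in the TTX-treated limbs of atrophy animals 1, 2 and 3. Runx1, a transcription factor of denervated muscle, was at 5.06, 2.81 and 20.9 CPM in the sham limbs and at 1.59 to 21.1 CPM (median 7.95) in the contralateral limbs. Ankrd1, a stretch-responsive sarcomeric protein, was at 57.0, 116 and 2270 CPM in the sham limbs and at 42.0 to 1140 CPM (median 360) in the contralateral limbs. Sham animal 3 was the highest right limb for Ankrd1 and Myog, and the contralateral limb of atrophy animal 3 was the next. The TTX-treated limbs of the repeated atrophy animals held 7200 ± 4290 CPM (SD, n = 3) of Ankrd1.

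Of the embryonic and fetal muscle genes, Myh3, Emb and Mymk varied widely in both arms. Myh3, the embryonic myosin heavy chain, was at 14.8, 9.30 and 84.8 CPM in the sham limbs and at 5.36 to 50.3 CPM (median 23.5) in the contralateral limbs. Emb, the cell adhesion molecule embigin, was at 15.7, 0.678 and 31.0 CPM, against 0.490 to 19.8 CPM (median 8.87). For Emb, the TTX-treated limbs of atrophy animals 1, 2 and 3 held 251, 25.2 and 279 CPM, and those of the repeated atrophy animals 290 ± 75.1 CPM (SD, n = 3). Mymk, the fusion protein myomaker, was at 0.413, 0.726 and 21.7 CPM in the sham limbs and at 0.245 to 11.9 CPM in the contralateral limbs. Myh8, a developmental myosin heavy chain, varied less in the contralateral limbs, at 10.7 to 23.9 CPM. Sham right limb 2 lay below them at 7.3 CPM and sham right limb 3 above them at 68.7 CPM. Its log2 fold change was -0.68, and -1.52 to 0.01 under the alternatives, with a smallest limma adjusted p of 0.0576.

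With all limbs, genes that silenced muscle loses were also not DEGs in the contralateral limbs. Perm1, a regulator of mitochondrial genes in muscle, was at 102, 183 and 48.7 CPM in the sham limbs and at 65.9 to 335 CPM (median 183) in the contralateral limbs, a log2 fold change of 0.93 ± 0.48 (SE, limma adjusted p = 0.594). Kcna7, a muscle potassium channel, was at 258, 172 and 183 CPM, against 177 to 284 CPM (median 218). Its 95% interval was -0.24 to 0.49 on the log2 scale. Aqp4, the water channel of fast fibres, was at 55.3, 68.0 and 24.9 CPM, against 12.4 to 132 CPM (median 54.0). In these 3 genes the arms overlapped, and the TTX-treated limbs of the repeated atrophy animals held 7.09 ± 2.64, 25 ± 6.90 and 1.39 ± 2.04 CPM (SD, n = 3) of Perm1, Kcna7 and Aqp4.

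**Figure D5:**
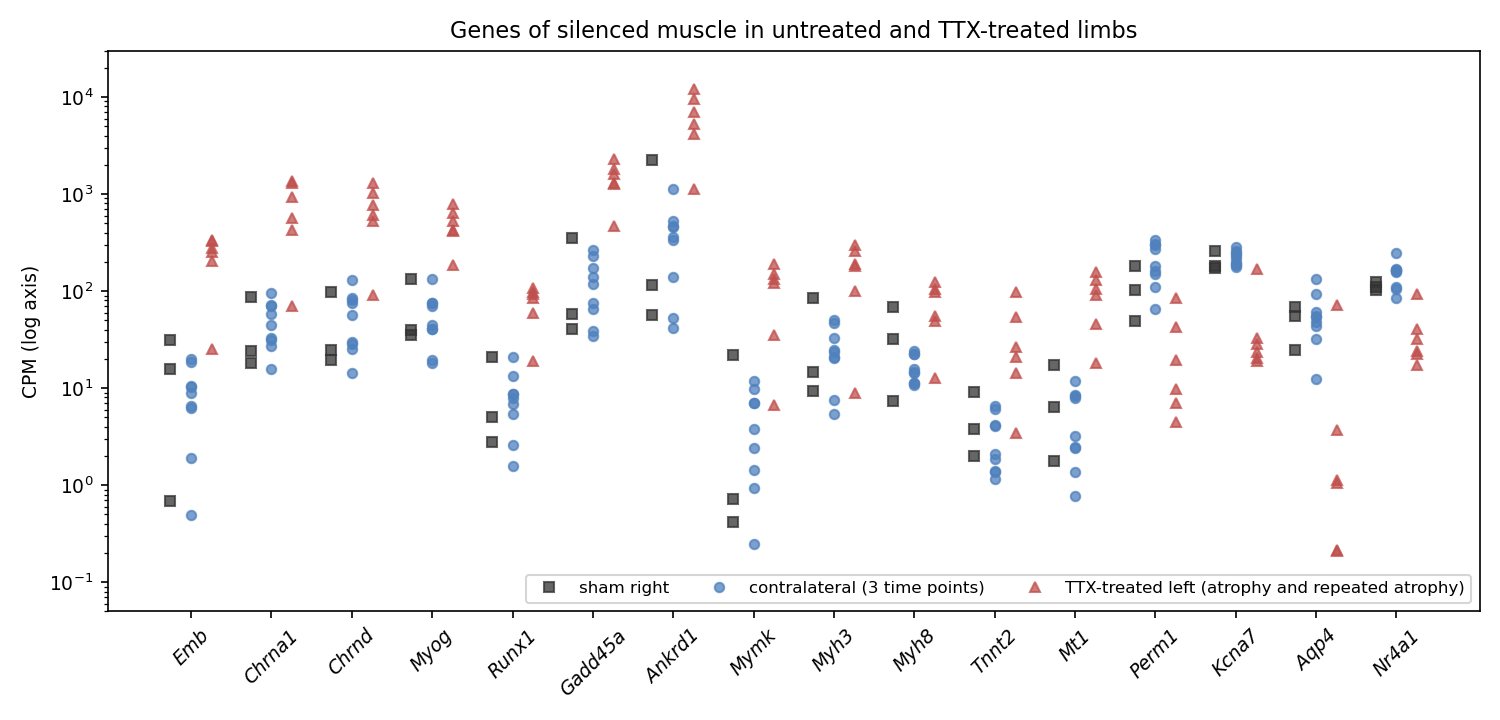
CPM (y axis, log scale) of 16 genes of silenced muscle (x axis) in each sham right limb (squares), contralateral limb (circles) and TTX-treated left limb of the atrophy and repeated atrophy animals (triangles). The ranges of squares and circles overlap in every gene, for example Chrna1 at 18.3 to 87.7 CPM and 15.7 to 95.2 CPM, while 5 of the 6 TTX-treated limbs lie between 431 and 1350 CPM for that gene. In Myh8, sham right limb 2 lies below all circles and sham right limb 3 above them.

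The contractile and metabolic genes of the fibres did not part the arms. The 15 fast fibre genes had a median log2 fold change of 0.28 (0.49 rescaled), the 75 tested genes of oxidative phosphorylation 0.25 (0.46 rescaled) and the 22 genes of the citric acid cycle 0.22 (0.43 rescaled). On the deposited scale, 0 members of the 3 lists reached an unadjusted p under 0.05. After rescaling, 1 oxidative phosphorylation gene was higher, beside 2.03% of all rows. The medians as deposited were 0.05, 0.07 and 0.06 without sham right limb 3. They were 0.49, 0.47 and 0.44 without sham right limb 2, with 2 of 15, 18 of 75 and 2 of 22 members higher at the unadjusted threshold, beside 1.59% of all rows. Myh4, the fast myosin of type IIB fibres, was at 45000, 53500 and 48200 CPM in the sham limbs and at 47500 to 70300 CPM (median 65800) in the contralateral limbs. Myh7, the slow myosin, was at 3210, 981 and 1810 CPM, against 1040 to 2540 CPM (median 1600). Both genes overlapped between the arms, and the log2 fold change of 0.35 for Myh4 had a 95% interval of -0.90 to 1.60. That interval rests on limma's moderated error, which for genes at this level is wider than the spread of the gene's own values, at 62400 ± 7810 (SD, n = 9) and 48900 ± 4310 CPM (SD, n = 3). Reads of the adult fast myosins can be shared between these near-identical genes.

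Growth and turnover lists were centred close to all rows. The 75 ribosomal protein genes had a median of -0.24 (-0.03 rescaled, and -0.45 to 0.05 with a sham limb left out) and the 31 proteasome subunits -0.29 (-0.08 rescaled, and -0.46 to -0.13 with a sham limb left out), with 0 DEGs in each and 1 ribosomal protein gene at an unadjusted p under 0.05 (Rpl37a, whose row was below 5 CPM and was named after its values were seen). The 15 acetylcholine receptor and junction genes had a median of 0.16 (0.37 rescaled), with 1 lower at the unadjusted threshold as deposited and 2 higher and 0 lower after rescaling, beside 7.78% of all rows lower and 2.03% higher on those scales. Their median was -0.05 without sham right limb 2, with 2 lower and 1 DEG in limma, so the direction of this list was not settled. Collagens and matrix genes had a median of -0.06 (0.13 rescaled), a direction that turned with the scaling, and 0 of 27 reached the threshold with all limbs, with 1 DEG in limma without sham right limb 2. The 8 satellite cell markers had a median of -0.04 (0.14 rescaled), also turned by the scaling.

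Of the adipocyte markers, 4 of 9 were lower in the contralateral limbs at the unadjusted threshold, beside 7.78% of all rows, with a median of -0.43 (-0.29 rescaled). After rescaling the count was again 4 of 9, beside 3.32% of all rows. On the deposited scale it was 2 of 9 without sham right limb 1, 4 of 9 with 2 DEGs in limma without sham right limb 2 and 1 of 9 without sham right limb 3. Lpl, the lipoprotein lipase, was at 256, 130 and 351 CPM in sham right limbs 1, 2 and 3 and at 98.7 to 173 CPM (median 137) in the contralateral limbs. Fabp4, a fatty acid carrier of fat cells and capillaries, was at 175, 109 and 275 CPM, against 74.2 to 167 CPM (median 94.6). Sham limbs 1 and 3 were above all contralateral limbs in both genes and sham limb 2 was within their range.

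The other lists had 0 DEGs in limma with all 12 limbs. Their deposited counts at the unadjusted threshold are to be read beside the 7.78% of all rows that were lower and the 0.390% that were higher. Rescaled counts are to be read beside 3.32% lower and 2.03% higher. Counts without sham right limbs 1, 2 and 3 are to be read beside 3.08%, 23.0% and 5.61% lower. Of the stress and immune lists, the acute phase and cytokine genes had 5 of 19 lower (median -0.42, or -0.28 rescaled), the load and stretch genes 3 of 17 (-0.29, or -0.13), and the neutrophil and mast cell markers 2 of 8 (-0.38, or -0.24). Without sham right limbs 1, 2 and 3 in turn, 0, 8 and 0 of the acute phase genes, 2, 4 and 1 of the load and stretch genes and 0, 5 and 3 of the neutrophil and mast cell markers were lower. The setting without sham right limb 2 gave 2, 1 and 1 DEGs in these lists by limma and 1 DEG among the fasting genes. After rescaling, 0 of 19, 1 of 17 and 2 of 8 were lower. The heat shock proteins had 3 of 29 lower as deposited and 2 higher after rescaling (-0.15, or 0.06 rescaled) and the metallothioneins and zinc transporters 1 of 8 lower (-0.33, or -0.14). Of the metabolic lists, the cholesterol synthesis genes had 3 of 21 lower (-0.15, or -0.01 rescaled), the fasting genes 3 of 26 (-0.14, or 0.07), the fatty acid synthesis genes 1 of 17 (-0.09, or 0.10), and the glycolysis genes 1 higher and 1 lower of 27 as deposited and 3 higher and 0 lower after rescaling (0.18, or 0.39). The myosin light chains had 1 of 6 lower (0.03, or 0.24 rescaled) and the smooth muscle and pericyte markers 1 of 9 (-0.06, or 0.09).

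No member reached the unadjusted threshold in limma among the remaining lists with all 12 limbs on the deposited scale. Their medians, as deposited and rescaled, were -0.19 and 0.02 for the silenced muscle regulators, -0.07 and 0.14 for slow fibre genes, -0.12 and 0.09 for myosin heavy chains, -0.19 and 0.01 for clock genes, -0.03 and 0.11 for NAD biosynthesis and -0.16 and 0.03 for polyamine metabolism. All 6 of these changed sign with the scaling. Leaving out a sham limb moved some of them further, to between -0.57 and 0.54 for the silenced muscle regulators, -0.38 and 0.29 for slow fibre genes and -0.42 and 0.09 for myosin heavy chains. Among cell type markers they were 0.09 and 0.18 for Schwann cells, 0.22 and 0.39 for fibro-adipogenic cells, -0.18 and -0.10 for tenocytes, 0.09 and 0.31 for red blood cells and 0.13 and 0.35 for muscle fibres. Those of red blood cells ran from -0.19 to 0.59, of tenocytes from -0.39 to 0.05 and of Schwann cells from -0.06 to 0.15 with a sham limb left out.

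The 3 time points were then set against the same 3 sham limbs, which they share. Each comparison gave 0 DEGs by limma, with 743 rows (5.37%) at an unadjusted p under 0.05 for the atrophy animals, 2421 (17.5%) for the recovery animals and 691 (4.99%) for the repeated atrophy animals. Of these rows, 598 (4.32%), 2097 (15.1%) and 607 (4.38%) were at a lower level in the contralateral limbs, and 145 (1.05%), 324 (2.34%) and 84 (0.607%) at a higher level. After rescaling, 342 rows were higher and 501 lower for the atrophy animals, 923 and 594 for the recovery animals and 255 and 244 for the repeated atrophy animals, so the split depended on the scaling at all 3 time points. The recovery comparison was the one most moved by a single animal: without sham right limb 2, the sham animal of the recovery time point, it had 1124 DEGs, 155 higher and 969 lower. An F test over the 3 contralateral time points found 0 rows at an adjusted p of at most 0.05 (limma) and 1291 at an unadjusted p under 0.05.

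The unadjusted 95% intervals use limma's moderated error, which borrows from genes of a similar level, and a DEG call over all 13848 rows needed a larger difference than they show. Over the 6532 rows with a mean of at least 10 CPM, the median half-width of the 95% interval was 0.45 on the log2 scale. The interval lay within 2-fold in either direction for 5495 of them (84.1%) and within 1.5-fold for 2301 (35.2%). The median SD of log2 levels was 0.31 among the contralateral limbs and 0.34 among the sham limbs. For the widely varying genes of silenced muscle and the atrogenes much larger differences were within the intervals, such as -2.75 to 0.58 for Trim63 and -2.27 to 2.38 for Ankrd1.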

How the data were processed

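RNA was extracted from the TA of both limbs of 12 rats and sequenced as directional polyA libraries. Per the labels, the authors removed contaminant reads with Bowtie2 2.2.5, aligned to rn7 with STAR and worked in Partek. The counting step and annotation are not given in the sources used here. The deposited values are CPM, since each column sums to 1000000. The study's methods name the median of ratios of DESeq2, which does not give equal column sums, so the scaling of the deposited values differs from the one stated by the authors. Of 27 value columns, 3 match no sample and were not used. Of 14271 rows, 28 duplicates were dropped. Low values were whole multiples of a step (tolerance 0.02) in only 86.4% to 88.3% of cases, so reads were not recovered and no count test was run.

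Rows above 0 in at least 3 of the 12 right limbs (13848) were fitted as log2(CPM + 1) in R 4.3.3 by limma 3.58.1, letting the prior variance follow the level, and fold changes are on that scale, which understates changes of low genes. TMM factors were computed with 30% of ratios and 5% of levels trimmed. Single values were compared by exact permutation. The script was tested on simulated data. Sham right limbs carry the condition control in the labels, and their sham status comes from the animal number shared with the left limb. Replicates are animals.

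Genes named were those parting the arms with a mean of at least 10 CPM, up to 10 per direction by fold change; the most abundant and most different members of 40 lists; and 21 silenced-muscle genes. Others are said to be named after their values were seen. Members and lists were chosen with earlier results of these data known, and no list was tested as a set. Alternatives were pseudocounts of 0.1 and 10, TMM, quantile normalization, filters, limma settings, a time term, fits over all 24 limbs, other fold thresholds and each limb left out. Promoters are RefSeq, GRCr8.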

Additional observations from a re-analysis of the deposited data

Results flagged for a closer look

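Of 77 measures in the 9 contralateral limbs, 3 had a limb farther from its nearest neighbour than Dixon's 95% critical value allows, and chance flags about 1 in 20 groups. The mean level of the fast fibre genes was lowest in atrophy animal 3, at 12.4 against 12.9 in the next limb on the log2 scale, a gap of 0.54 of the range. The proteasome subunits were highest in the same limb, at 7.84 against 7.2, a gap of 0.50 of the range. The tenocyte markers were highest in recovery animal 2, at 3.67 against 2.54, a gap of 0.53 of the range. Without the limb of atrophy animal 3 the comparison had 0 DEGs by limma and 1672 rows at an unadjusted p under 0.05, and without that of recovery animal 2 it had 0 and 926.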

How the results depend on the processing

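Of 161 values of the comparisons recomputed under alternatives, 137 kept their direction and call or moved within the limits set. The count of DEGs was 0 under every alternative listed in the methods with all 12 limbs, and 0 to 117 with each limb left out. Rows at an unadjusted p under 0.05 (1132) were 741 after TMM, 703 after quantile normalization, 438 with a mean of at least 10 CPM, where fewer rows were tested, and 489 to 3410 with a limb left out. The median log2 fold change (-0.15) was -0.06 with a pseudocount of 10, -0.01 after TMM and 0.00 after quantile normalization, and -0.27 to -0.08 with a limb left out. In alternatives chosen after seeing the data, sham right limb 2 alone, its spread assumed to be that of the contralateral limbs, gave 3 DEGs (Mcpt9, Mcpt10 and Wfdc6a, all under 1 CPM on average in both arms of 12 limbs), 321 unadjusted rows and a median of 0.05; TMM without sham right limb 2 gave 4 DEGs (Acer2, Slc7a1, Adamts4 and Psat1, all lower) and 2058 unadjusted rows, 1040 higher and 1018 lower. The atrophy comparison had 1 DEG (Tll1) with a pseudocount of 10 and 1 DEG, Tll1 again, with all 24 limbs, and 0 to 0 with a limb left out; the recovery comparison had 0 to 1124, with 1 (Gcgr) without recovery animal 3; the repeated atrophy comparison had 0 to 6, the highest without sham right limb 2. The PC1 difference ran from -49.9 to -16.3 and that of the 10 most abundant genes from 1.03 to 4.37 with a limb left out. Of 840 gene values, 1 passed the threshold, Nr4a3 at -1.56 without sham right limb 2 (limma adjusted p = 0.0354), and 20 of 34 genes kept their sign throughout, including the 14 chosen because the arms did not overlap, whose sign a left-out limb cannot turn. The causes were not tested. No paired analysis was possible because each animal gives 1 right limb and no number links animals across arms. At depths of 18900000 to 30900000 counted units, levels well under 1 CPM rest on few of them.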
